A study of Mus musculus with 6 samples.

Results

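Immediate early response genes are transcribed within minutes of a stimulus, before any new protein has to be made, and 37 of them were followed here in mouse skeletal muscle. They were chosen by gene symbol, and each of the 37 was represented by 1 probe set among the 19938 genes tested. The arrays came from 3 transgenic (TG) and 3 wild-type (WT) mice of a series whose title names SOCS-3 and muscle, 1 mouse per array. The labels give neither the sequence the transgene carries, its promoter, the muscle taken, the strain nor the age of the mice, and no treatment is named for either group. Total RNA of frozen tissue was hybridised to Affymetrix MoGene arrays, whose log2 values had medians between 5.98 and 6.04 per array.

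Most members encode transcription factors or brakes on signalling. In muscle, contraction, stretch, adrenergic and cytokine signals reach their promoters through the MAP kinases acting on serum response factor and its ELK partners, through cyclic AMP and calcium acting on CREB, and through NF-kappaB and STAT3. AP-1, EGR, NR4A and KLF proteins then carry the signal to later genes, while the DUSP phosphatases, NF-kappaB inhibitor alpha and the mRNA decay factor tristetraprolin end it. SOCS3, itself induced by STAT3, shuts off gp130 cytokine receptors. The transcripts are short-lived, so their level depends on the state of the animal and tissue shortly before freezing.

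The promoters of 5 members are shown because these genes carry the patterns described further on: Dusp1, Nr4a1 and Dusp5 were lower on every TG array than on every WT array, Fos had the largest difference and the largest excess on a single array, and Nr4a3 lay on the opposite side of 0. The windows run from 250 bases before to 50 bases after the RefSeq start on GRCm38.p6, 5′ to 3′ on the gene's strand. Capitals mark the cyclic AMP response element TGACGTCA, its form TGACGNCA, its core TGACG, the CArG box bound by serum response factor, the EGR motif GCGNGGGCG and the TATA motif TATAAA, on either strand.
Dusp1 (chr17:26508423-26508722, minus strand): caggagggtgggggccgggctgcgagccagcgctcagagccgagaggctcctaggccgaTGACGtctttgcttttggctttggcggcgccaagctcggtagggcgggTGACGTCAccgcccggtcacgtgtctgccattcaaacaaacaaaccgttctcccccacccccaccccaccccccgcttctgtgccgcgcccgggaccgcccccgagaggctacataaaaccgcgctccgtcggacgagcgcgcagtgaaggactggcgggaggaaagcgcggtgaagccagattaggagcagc
Nr4a1 (chr15:101266596-101266895, plus strand): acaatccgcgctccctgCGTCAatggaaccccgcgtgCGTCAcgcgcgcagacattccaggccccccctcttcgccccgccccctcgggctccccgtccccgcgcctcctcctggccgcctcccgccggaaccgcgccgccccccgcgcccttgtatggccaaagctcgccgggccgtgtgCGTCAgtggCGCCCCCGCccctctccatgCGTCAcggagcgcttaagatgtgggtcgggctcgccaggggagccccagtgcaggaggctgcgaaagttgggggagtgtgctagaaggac
Dusp5 (chr19:53528895-53529194, plus strand): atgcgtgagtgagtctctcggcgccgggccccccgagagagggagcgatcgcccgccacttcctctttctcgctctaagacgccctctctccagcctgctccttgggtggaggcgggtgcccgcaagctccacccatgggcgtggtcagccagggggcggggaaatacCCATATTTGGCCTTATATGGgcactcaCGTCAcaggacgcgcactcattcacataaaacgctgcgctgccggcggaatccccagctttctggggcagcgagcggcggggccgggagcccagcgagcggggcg
Fos (chr12:85473640-85473939, plus strand): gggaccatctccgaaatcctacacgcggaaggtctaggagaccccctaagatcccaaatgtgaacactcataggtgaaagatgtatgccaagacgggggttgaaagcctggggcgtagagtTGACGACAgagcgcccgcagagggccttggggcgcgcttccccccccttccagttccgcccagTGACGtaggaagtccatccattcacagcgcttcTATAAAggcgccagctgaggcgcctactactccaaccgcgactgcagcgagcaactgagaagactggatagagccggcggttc
Nr4a3 (chr4:48045055-48045354, plus strand): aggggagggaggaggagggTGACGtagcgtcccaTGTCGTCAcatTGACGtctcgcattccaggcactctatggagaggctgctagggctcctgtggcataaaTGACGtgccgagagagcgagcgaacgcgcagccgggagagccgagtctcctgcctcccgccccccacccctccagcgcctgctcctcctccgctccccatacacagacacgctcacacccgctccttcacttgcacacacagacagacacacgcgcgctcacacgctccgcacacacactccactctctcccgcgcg

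Dusp1 held the full cyclic AMP response element 143 bases before its start, and Nr4a3 held the form with an open base 216 bases before its start along with further copies of the core. Dusp5 held CArG boxes that began 82 and 72 bases before the start, end to end, with a core at 55. Fos held its TATA motif 33 bases and cores 66 and 129 bases before the start, the farther one inside the open form. Nr4a1 held 4 cores, the nearest 40 bases before the start, and an EGR motif. RefSeq windows matched 29 of the 37 members by symbol and 15614 of the genes tested, some with several windows. At least 1 core TGACG was present in 18 of 29 members, or 62.1%, and in 28.0% of all genes with a window. The open form TGACGNCA, which contains the core, was present in 9 members, or 31.0%, against 4.82%, and the complete TGACGTCA in 4 members, Btg2, Dusp1, Maff and Plk2, against 2.72% of all genes. CArG boxes were present in Dusp5, Egr2 and Zfp36, or 10.3% of members against 1.63%, and the EGR motif in 11 members, or 37.9% against 9.32%. NF-kappaB motifs were found in 6 members, or 20.7% against 7.61%, among them Nfkbia. The motifs STAT (TTCNNNGAA), AP-1 (TGANTCA) and TATA were found in 3, 1 and 6 members, against 8.99%, 8.08% and 13.6% of all genes. These letter matches describe the windows and show no binding.

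The arrays were checked before the members were compared. Muscle fibre markers were measured for 12 of 12 genes, with mean levels from 13.23 to 13.24 on the TG arrays and from 13.26 to 13.30 on the WT arrays. Every TG array thus lay slightly below every WT array, and the creatine kinase gene Ckm lay between 14.48 and 14.53 on all 6. Correlations between arrays across all genes were 0.9943 at the lowest and 0.9960 at the highest. Of all 19938 genes, 5043 were highest on WT array 3 and 4436 were lowest on TG array 1. Among the members, another array stood out. WT array 2 held the highest value of 24 of the 37 members, where it held the highest value of 15.5% of all genes. Measured from each gene's mean over 6 arrays, the median member stood at -0.05, -0.05 and -0.13 on the 3 TG arrays, against -0.08, 0.34 and 0.05 on the 3 WT arrays. Differences are therefore also given without WT array 2, a choice made after its values were seen.

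**Figure D1:**
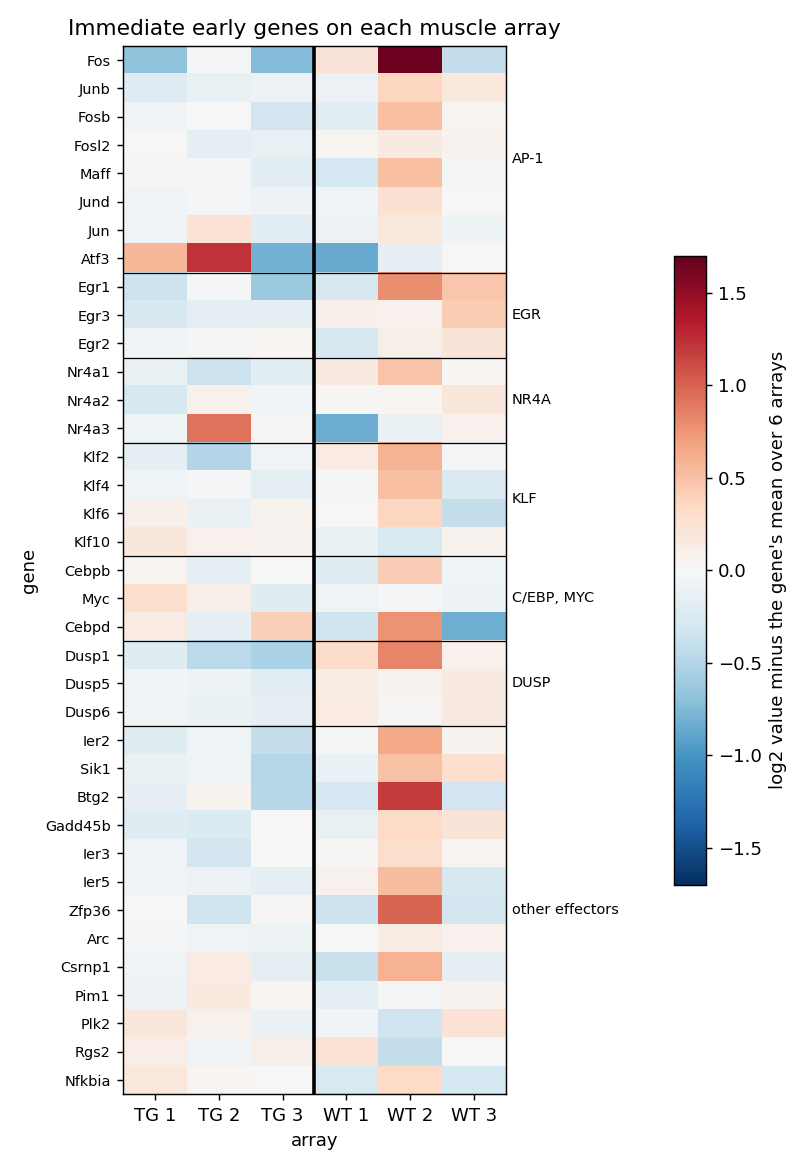
Each row is a gene, grouped by role, and each column an array, with TG on the left; the colour is the log2 value minus the gene's mean over the 6 arrays. WT array 2 is the highest of the 6 for 24 of the 37 genes, while Atf3, Nr4a3, Jun and Pim1 are highest on TG array 2.

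The comparison asked how these transcripts differed between TG and WT muscle. No member passed the threshold of 0.05 on the p-value adjusted over all genes (limma, smallest adjusted p = 0.627, for Dusp1), where 1 gene of 19938, or 0.00502%, passed. At an unadjusted p under 0.05, 11 members had lower values in TG and 0 had higher values, against 4.79% and 1.96% of all genes. TG was below WT for 26 of 37 members, against 56.2% of all genes, with a median log2 difference, TG minus WT, of -0.17 over the members and -0.016 over all genes. On every TG array, 10 members lay below all WT arrays and 1, Klf10, lay above, against 7.76% and 4.52% of all genes.

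These counts depended on single arrays. Without WT array 2, 5 members had lower and 2 had higher values at an unadjusted p under 0.05, against 4.44% and 1.79% of all genes, 21 of 37 were below 0 against 58.2%, and the median was -0.05 against -0.022. The lower count was 7 without TG array 2 and 7 without TG array 3, against 4.66% and 5.5% of all genes. Members lower without overlap numbered 17 without WT array 1 and 14 without TG array 2, against 15.2% and 13.4% of all genes, with fewer arrays to separate. The 5 members lower at that level both with and without WT array 2 were Dusp1, Dusp5, Dusp6, Egr3 and Nr4a1. Cebpd and Nfkbia were the 2 on the higher side without it. In whole muscle, fewer cells of a type and less RNA per cell cannot be told apart.

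**Figure D2:**
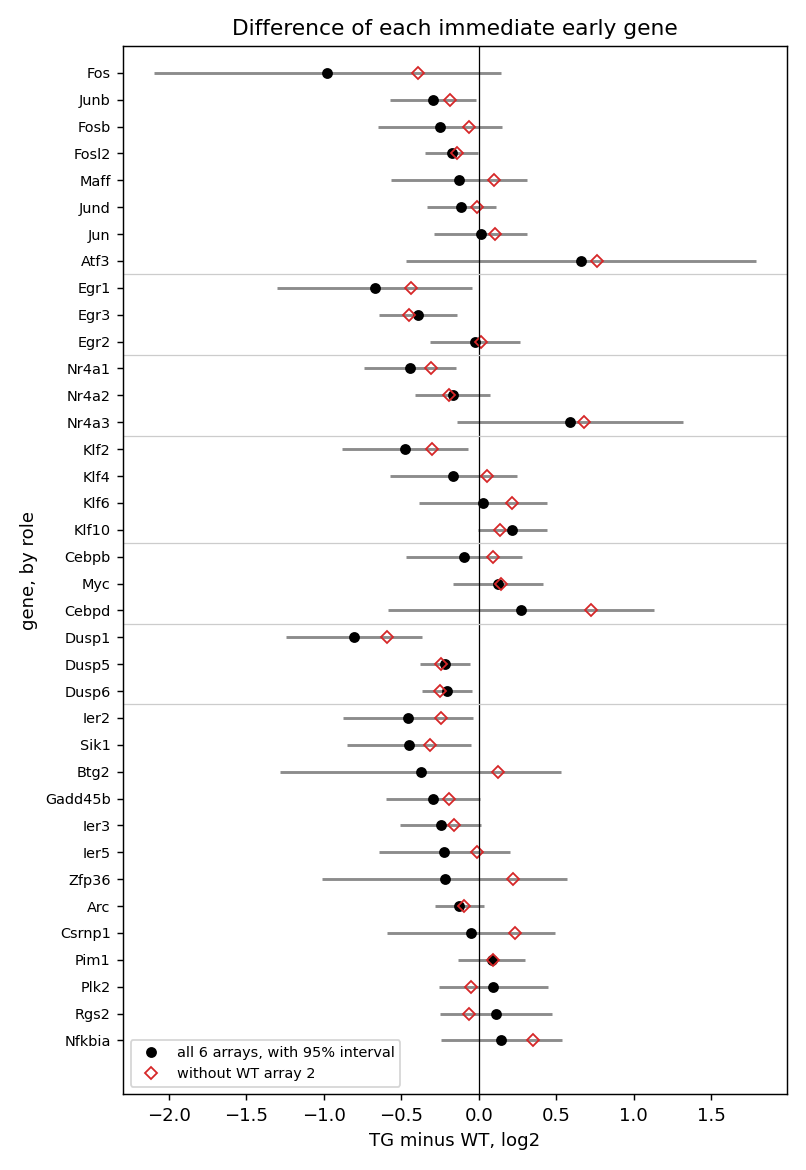
Log2 differences, TG minus WT, of the 37 genes in blocks by role. Filled points with bars are the difference over 6 arrays and its 95% interval, and open diamonds the difference without WT array 2. The bars of 11 genes lie wholly below 0, while Zfp36, Btg2 and Csrnp1 move from below to above 0 without that array.

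The MAP kinase phosphatases were lower in TG for each of 3 members, and on every TG array. Dusp1, which dephosphorylates p38, JNK and ERK in the nucleus, stood at 11.08, 10.83 and 10.75 on the TG arrays, against 11.60, 12.12 and 11.36 on the WT arrays. Its groups were separate, and WT array 2 was the highest. The log2 difference was -0.81 (SE 0.19, 95% interval -1.25 to -0.37), or 1.75-fold lower, and -0.59 without WT array 2. Dusp5, a nuclear phosphatase of ERK, stood at 6.95, 6.92 and 6.82 in TG, against 7.13, 7.06 and 7.15 in WT. Here WT array 2 was the lowest of the WT arrays, and the difference, -0.22 (SE 0.07), was -0.24 without it. Dusp6, the cytoplasmic phosphatase of ERK, stood at 8.43, 8.37 and 8.35 in TG, against 8.62, 8.50 and 8.63 in WT. The difference was -0.20 (SE 0.07), and -0.25 without WT array 2. Their adjusted p-values were 0.627, 0.708 and 0.710 (limma).

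The EGR zinc finger factors, early targets of serum response factor, differed among themselves. Egr3, needed for muscle spindle development, stood at 7.02, 7.14 and 7.13 in TG, against 7.37, 7.37 and 7.72 in WT. No WT array reached down to a TG array, and WT array 3 was the highest. The difference was -0.39 (SE 0.11; limma, adjusted p = 0.660), and -0.45 without WT array 2. Egr1 stood at 7.29, 7.61 and 7.00 in TG, against 7.37, 8.43 and 8.11 in WT. TG array 2 lay above WT array 1, so the groups overlapped, and the difference of -0.67 (SE 0.27) had an interval from -1.30 to -0.04. Without WT array 2 it was -0.44. Egr2, which directs myelination in Schwann cells, differed by -0.02.

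Of the NR4A orphan nuclear receptors, which exercise and adrenergic signals induce in muscle, Nr4a1 and Nr4a3 lay on opposite sides of 0. Nr4a1 stood at 11.86, 11.61 and 11.80 in TG, against 12.13, 12.46 and 12.01 in WT, without overlap. Its difference was -0.44 (SE 0.13; limma, adjusted p = 0.676), or 1.36-fold lower, and -0.31 without WT array 2. Nr4a3 stood at 9.97, 10.96 and 10.06 in TG, against 9.20, 9.93 and 10.11 in WT. TG array 2 was the highest and WT array 1 the lowest, and WT array 3 lay above 2 of the TG arrays. The difference was 0.59 (SE 0.31, interval -0.14 to 1.32), and 0.68 without WT array 2. Without each array in turn, it ranged from 0.27 without TG array 2 to 0.77 without TG array 1. Nr4a2, known from dopamine neuron development, differed by -0.17, with overlapping groups.

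The AP-1 family, basic leucine zipper proteins that pair to bind DNA, had 6 of 8 members below 0, with a median of -0.15. Fos stood at 6.94, 7.59 and 6.88 in TG, against 7.84, 9.28 and 7.21 in WT. TG array 2 lay above WT array 3, and WT array 2 exceeded the mean of the other WT arrays by 1.76, so that the SD was 0.39 in TG and 1.06 in WT (n = 3 each). The difference of -0.98 (SE 0.48, interval -2.10 to 0.15) became -0.39 without WT array 2. Junb stood at 6.52, 6.61 and 6.65 in TG, against 6.64, 7.11 and 6.92 in WT, with TG array 3 just above WT array 1 and a difference of -0.30 (SE 0.12). Fosl2, a Fos relative that lasts longer after a stimulus, stood at 7.64, 7.48 and 7.51 in TG, against 7.68, 7.79 and 7.69 in WT, without overlap and with a difference of -0.18 (SE 0.07). Atf3, a stress-induced repressor, stood at 9.29, 9.96 and 7.92 in TG, against 7.87, 8.59 and 8.72 in WT. The TG arrays spanned more than the WT arrays, with TG array 3 below 2 of them, and the difference was 0.66 (SE 0.48, interval -0.47 to 1.79). Without WT array 2, Junb, Fosl2 and Atf3 differed by -0.19, -0.14 and 0.76. Without each array in turn, Atf3 ranged from 0.21 without TG array 2 to 1.23 without TG array 3. Fosb, the small MAF factor Maff and Jund differed by -0.25, -0.13 and -0.11, and Jun by 0.01, each with overlapping groups.

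**Figure D3:**
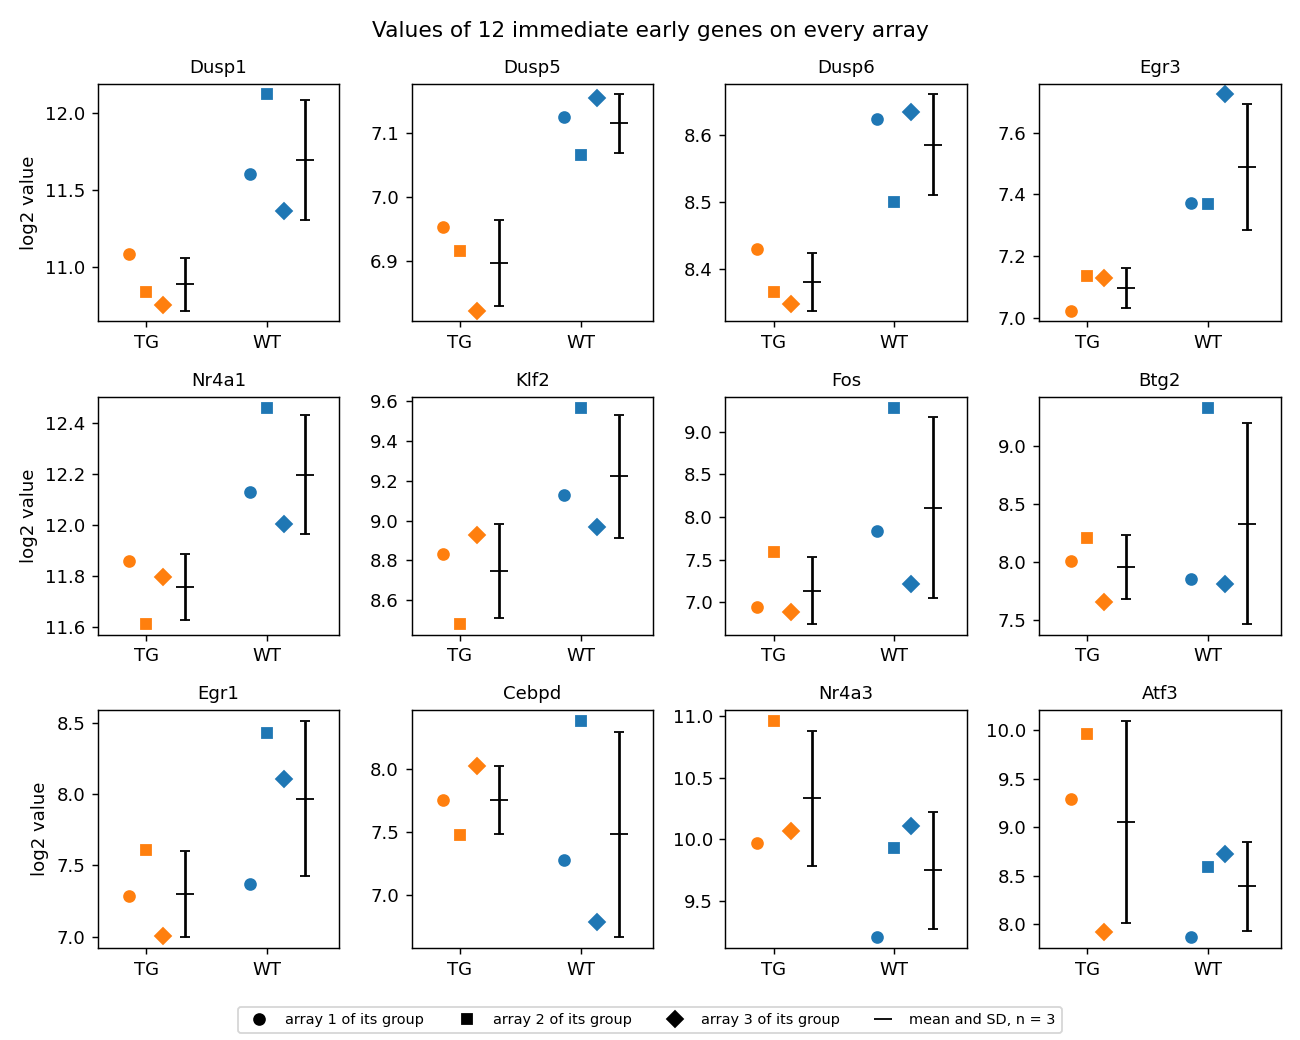
Log2 values of 12 genes on every array, TG on the left and WT on the right of each panel, with a marker shape per array and the mean and SD of 3 arrays beside them; each panel has its own scale. The groups are apart for Dusp1, Dusp5, Dusp6, Egr3, Nr4a1 and Klf2. WT array 2 is the highest point for Fos, Btg2, Egr1 and Cebpd, and also for Dusp1, Nr4a1 and Klf2.

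The KLF factors had 2 of 4 members on either side of 0. Klf2, which blood flow induces in endothelial cells, stood at 8.83, 8.48 and 8.93 in TG, against 9.13, 9.57 and 8.97 in WT. The groups were separate, by little between TG array 3 and WT array 3. Its difference was -0.47 (SE 0.17; limma, adjusted p = 0.725), and -0.30 without WT array 2. Of the endothelial markers beside it, 9 of 13 were below 0 (median -0.042), and their summed linear level ranged from 4999 to 5216 in TG and from 5211 to 5517 in WT. The vessel genes Egfl7, Pecam1 and Kdr differed by -0.25, 0.14 and -0.24, and their part in the Klf2 value was not tested. Klf10, induced by TGF-beta, stood at 7.96, 7.84 and 7.83 in TG, against 7.65, 7.50 and 7.82 in WT. It was the one member higher on every TG array, with a difference of 0.22 (SE 0.09), or 0.14 without WT array 2, and TG array 3 and WT array 3 were nearly level. Klf4 and Klf6, also found in endothelial cells, differed by -0.16 and 0.03, with overlapping groups.

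Of the C/EBP factors and Myc, Cebpd, a target of STAT3 and of glucocorticoids, was the most uneven. It stood at 7.76, 7.48 and 8.02 in TG, against 7.28, 8.38 and 6.79 in WT. WT array 2 was the highest and WT array 3 the lowest of all 6, and the difference of 0.27 (SE 0.37) became 0.72 without WT array 2. Cebpb differed by -0.09, and the growth regulator Myc by 0.13, both with overlapping groups.

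Among the 13 other effectors, 9 were below 0 and the median was -0.22. Ier2, a nuclear protein induced by growth factors, stood at 6.44, 6.57 and 6.23 in TG, against 6.61, 7.28 and 6.70 in WT, without overlap, and differed by -0.45 (SE 0.18). Sik1, a kinase that restrains CREB coactivators and class II histone deacetylases, stood at 8.29, 8.33 and 7.92 in TG, against 8.29, 8.90 and 8.69 in WT. TG array 2 lay above WT array 1, and the difference was -0.45 (SE 0.17). Ier3, a survival factor, stood at 6.91, 6.65 and 6.96 in TG, against 6.98, 7.26 and 7.01 in WT, with separate groups and a difference of -0.25 (SE 0.11). Arc, best known at synapses, stood at 6.93, 6.89 and 6.87 in TG, against 6.95, 7.09 and 7.03 in WT. Its groups did not overlap, but the difference was small, -0.13 (SE 0.07). Gadd45b, a stress sensor upstream of p38 and JNK, stood at 10.03, 10.02 and 10.25 in TG, against 10.12, 10.59 and 10.46 in WT, with TG array 3 above WT array 1 and a difference of -0.29 (SE 0.13). Without WT array 2, Ier2, Sik1, Ier3, Arc and Gadd45b differed by -0.25, -0.31, -0.16, -0.09 and -0.19.

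The differences of several of these effectors depended on WT array 2. Btg2, an antiproliferative partner of the deadenylase complex, stood at 8.01, 8.20 and 7.66 in TG, against 7.85, 9.33 and 7.81 in WT. WT array 2 was above the mean of the other WT arrays by 1.50, and the other WT arrays lay among the TG arrays. The difference was -0.38 (SE 0.39) with all arrays and 0.13 without WT array 2. Zfp36, which encodes tristetraprolin, likewise had -0.22 and 0.22, with an excess on WT array 2 of 1.33, and the transcription factor gene Csrnp1 had -0.05 and 0.24. The differences of Ier5 and of Nfkbia, the NF-kappaB inhibitor, were -0.22 and 0.15 with all arrays, and -0.01 and 0.35 without it. Of the rest, the STAT-induced kinase gene Pim1, the polo-like kinase gene Plk2 and the G protein regulator gene Rgs2 differed by 0.08, 0.09 and 0.11, with overlapping groups, and Plk2 and Rgs2 were lowest on WT array 2.

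Most members had a larger SD among WT than among TG arrays. The SD over 3 arrays was larger in WT for 28 of 37 members, with a median SD of 0.13 in TG and 0.31 in WT, while over all genes it was larger in WT for 49.6% and the medians were 0.10 in TG and 0.099 in WT. WT array 2 exceeded the mean of the other WT arrays by over 0.5 for 16 members, against 0.893% of all genes. Of the 24 members highest on WT array 2, 15 were lowest on a TG array, with or without overlap. The share of all genes with both traits was not counted, so no result is read from that number.

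The list of other genes that respond early held 71 genes, of which 67 were measured. TG was below WT for 43 of the 67, with a median of -0.022, against -0.016 over all genes. At an unadjusted p under 0.05, 7 were lower and 1 was higher, against 4.79% and 1.96% of all genes. None passed over all genes (limma, smallest adjusted p = 0.660). Id1, an inhibitor of myogenic factors, had the smallest p, with 7.56, 7.66 and 7.76 in TG, against 8.15, 8.41 and 7.89 in WT, and differed by -0.49 (SE 0.13). Socs3 differed by -0.26 (SE 0.07) and the STAT3 target Bcl3 by -0.24 (SE 0.07). Both lay lower on every TG array, and both were unmoved by WT array 2, at -0.25 and -0.24 without it. WT array 2 held the highest value of 24 of the 67.

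The kinases and factors that act on these promoters, 46 listed and 36 measured, were nearly level, with 15 below and 21 above 0 and a median of 0.016. At an unadjusted p under 0.05, 2 were lower and 1 was higher, against 4.79% and 1.96% of all genes (limma, smallest adjusted p = 0.574). Mapk7, the kinase ERK5 that acts on Klf2 and MEF2 factors, stood at 6.64, 6.50 and 6.58 in TG, against 6.85, 6.88 and 6.87 in WT, a difference of -0.29 (SE 0.07). Its groups were well apart and each was narrow. Stat3 differed by -0.30 (SE 0.07) and Braf, a kinase above ERK, by 0.18 (SE 0.07), both without overlap. WT array 2 was highest for 8 of the 36.

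Genes on the glucocorticoid-responsive list, which held no member, were also high on WT array 2. That absence reflects how the list was chosen, since the member Cebpd is also a target of glucocorticoids. Of 17 measured, 14 had their highest value there and 0 their lowest, and their median stood 0.37 above the 6-array mean. They share 4 genes with the list of other early genes. Between groups, 7 were below and 10 above 0, with a median of 0.029 over all arrays and 0.20 without WT array 2, and 0 were at an unadjusted p under 0.05 (limma, smallest adjusted p = 0.749). Pdk4, Foxo1 and Errfi1, those with the smallest p, differed by 0.16, 0.17 and -0.19. Their part in the members' values on WT array 2 was not tested.

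**Figure D4:**
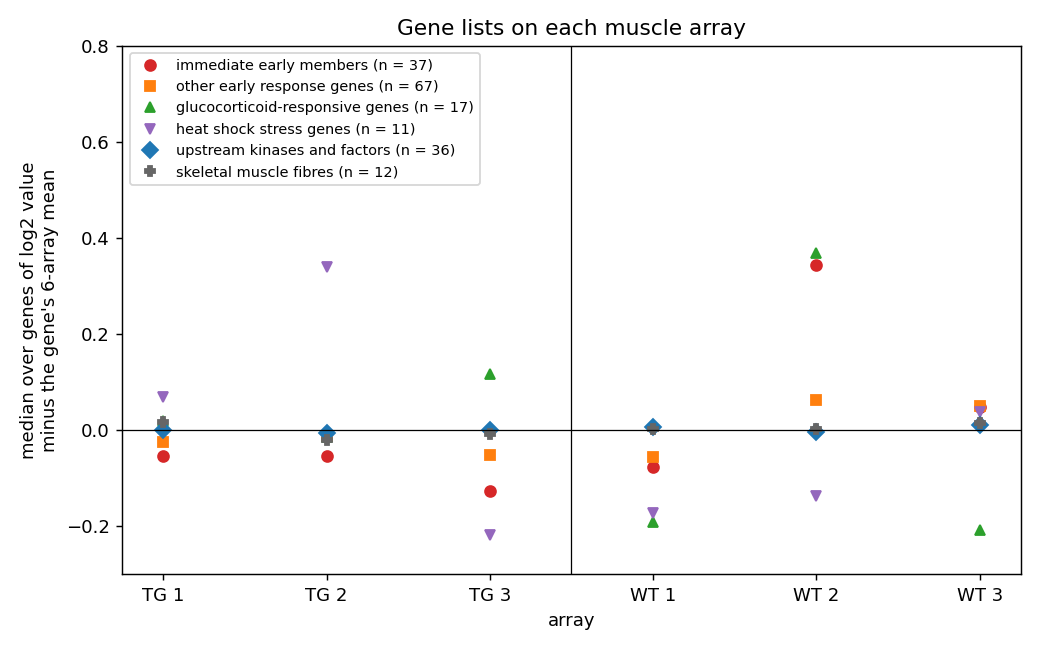
For 6 gene lists, the median over genes of the log2 value minus the gene's 6-array mean on each array, TG on the left. On WT array 2 the members and the glucocorticoid-responsive genes stand at 0.34 and 0.37, while heat shock genes stand at 0.34 on TG array 2.

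Heat shock genes were high on another array. Of 11 measured, 8 were highest on TG array 2 and 0 on WT array 2. TG array 2 also held the highest value of 4 of the 37 members, Atf3, Nr4a3, Jun and Pim1, and of 3061 of all 19938 genes. It was highest for 5 of 6 fat cell markers and 11 of 13 liver transcripts as well. TG was above WT for 10 of the heat shock genes, with a median of 0.14. At an unadjusted p under 0.05, 1 was higher and 1 lower, against 1.96% and 4.79% of all genes (limma, smallest adjusted p = 0.738). Hspa1a, the inducible HSP70, stood at 8.09, 9.25 and 7.30 in TG, against 7.38, 7.40 and 7.91 in WT. TG array 2 was the highest and TG array 3 the lowest. Hmox1 and Dnajb1 differed by 0.59 and -0.18. Their part in the Atf3 and Nr4a3 values was not tested.

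Markers of other cells gave no list member past the adjusted threshold. For macrophage markers, 10 of 12 genes lay above 0 (median 0.092), and their summed linear level ranged from 1473 to 1856 in TG and from 1282 to 1771 in WT. Itgam, Tyrobp and Ccr2 differed by 0.57, 0.26 and 0.56. All 6 fat cell markers lay above 0 (median 0.19), summing to between 2240 and 2520 in TG and 2050 and 2284 in WT, and Adipoq, Plin1 and Lep differed by 0.64, 0.21 and 0.26. The part of macrophages and fat cells in the members' values was not tested.

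All 13 liver transcripts were below 0 (median -0.61). Their summed level ranged from 1012 to 4536 in TG and from 2128 to 3530 in WT, and TG array 3 was lowest for 12 genes, TG array 2 highest for 11. TG array 3 also held the lowest value of 13 members, against 15% of all genes. Hpx, Apoa1 and Tat, those with the smallest p, differed by -1.01, -0.78 and -0.47, and 0 of the list were at an unadjusted p under 0.05 (limma, smallest adjusted p = 0.791). The part of these transcripts in the members' values was not tested.

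The other marker lists had medians from -0.19 to 0.083. Fibroblast markers had 6 of 8 above 0, with Pi16, Pdgfra and Lum at -0.28, 0.16 and 0.43. Smooth muscle markers had 6 of 11 below 0, with Myh11, Notch3 and Mcam at 0.16, -0.08 and 0.06. Satellite cell markers had 5 of 7 below 0, with Myod1, a myogenic factor, at -0.48 (SE 0.17), Cdh15 at -0.10 and Pax7 at -0.09. Lymphocyte markers had 6 of 9 below 0, with Cd3g, Cd8a and Cd4 at -0.30, -0.24 and -0.20, and neutrophil markers 4 of 9, with Ngp, S100a8 and Retnlg at 0.19, -0.29 and -0.14. Nerve markers had 6 of 7 below 0, with Ngfr, Nefm and Mbp at -0.17, 0.18 and -0.13. Red cell markers had 2 of 3, with Epb42, Alas2 and Slc4a1 at -0.34, 0.15 and -0.19. Muscle fibre markers had 10 of 12 below 0 by a median of -0.019, with Myh2, Myh1 and Tnni2 at -0.30, 0.06 and -0.05.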

How the data were processed

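In the table that the authors deposited, each of 6 arrays has log2 values for 35557 probe sets, spanning 1.41 to 15.1. The log2 scale was read from these deposited values; how they were summarized and normalized is not stated in the labels. The spread of array medians was 0.0571 and that of interquartile ranges 0.0617, both under a limit of 0.1, and no scaling was added. Array numbers follow deposit order and pair no mice, and the labels name no batch that divides the arrays.

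Symbols came from the platform annotation, by which 21789 probe sets had 1 symbol, 1621 several and 12147 none, and each gene took its probe set of highest mean. TG and WT were compared with the limma package (version 3.58.1, R 4.3.3; lmFit, eBayes), two-sided, adjusted by Benjamini-Hochberg over 19938 genes, after a test on simulated data. Figures used matplotlib 3.10.9. Signal over background was not assessed, and 3 arrays per group limit the precision.

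The members, the 16 other lists and the alternatives were chosen with earlier results of these data known. Values on every array are given for the 11 members without overlap and for those of largest difference, up to 20, and from every other list the 3 genes of smallest p are named, with Socs3 and Stat3. Ckm, the genes named for their motifs and the 5 printed promoters were picked after values were seen. Listed genes without a probe set of 1 symbol were not analysed here. Alternatives covered the variance model (trend, robust, array weights), genes above the median level, the choice of probe set, 2 other scalings, and leaving out each array.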

Additional observations from a re-analysis of the deposited data

How the results depend on the processing

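Over 15 alternatives, 0 members passed the adjusted threshold (limma, lowest adjusted p = 0.269, for Dusp1 with an intensity trend). The sign was kept by 25 of 37 members. The intensity trend, robust moderation, the level filter and the choice of probe set could not turn a sign. They leave the difference of a gene with 1 probe set as it is. The count of genes called, 1, was 7 with an intensity trend, 2 among genes above the median level, and 0 with robust moderation, with every probe set tested, with a common array median and without any 1 array. Members at an unadjusted p under 0.05 were 11 lower and 0 higher. With an intensity trend, 14 were lower and 1 higher, against 4.09% and 2.43% of all genes. Among genes above the median level, 12 of 33 members were lower and 1 higher, against 3.63% and 3.25%. With every probe set tested, 6 were lower and 0 higher, against 3.4% and 2.52% of probe sets. Without an array, 5 to 11 were lower and 0 to 2 higher, against 3.3% to 5.52% and 1.7% to 2.35% of all genes. Members without overlap, also 11, numbered 11 to 18 without an array, with fewer arrays to separate. The share of all genes without overlap was then 11.4% to 15.7% lower and 7.91% to 9.74% higher, against 7.76% and 4.52% with all arrays. Without an array, the members' median difference ran from -0.22 to -0.05. With a common array median, 26 members were below 0, against 48.8% of all genes, where that share was 56.2% with the values as deposited.

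Signs turned for 12 members. With quantile normalization Jun stood at -0.0039. Without each array in turn, Jun ranged from -0.11 to 0.11, Maff from -0.31 to 0.10, Egr2 from -0.17 to 0.077, Klf4 from -0.32 to 0.051, Klf6 from -0.17 to 0.21, Cebpb from -0.22 to 0.093, Cebpd from -0.076 to 0.72, Btg2 from -0.63 to 0.13, Zfp36 from -0.45 to 0.22, Csrnp1 from -0.25 to 0.24, Rgs2 from -0.064 to 0.26 and Plk2 from -0.050 to 0.24. The cause was not tested.

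No paired analysis was possible because the labels give the groups no shared replicate numbers.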
